A study of Mus musculus with 6 samples.

Results

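Molecular chaperones of the heat shock protein and DnaJ families were described in the deep cerebellar nuclei of mice trained in eyeblink conditioning. The members were the probe sets whose single gene symbol in the platform annotation starts with Hspa, Hspb, Hspd, Hspe, Hsph, Hsp90, Dnaja, Dnajb, Dnajc, or with Cct or Bag followed by a digit. This gave 84 of the 15970 genes named in the series, on 187 of its 36701 probe sets, 87 of them on array design A, 59 on B and 41 on C. The rule used names only and no measured value, though earlier results of these data were known when it was chosen.

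The tissue was centred on the anterior interpositus, an output nucleus of the cerebellum, and came from male C57BL/6 mice aged 11 to 18 weeks. All mice had wires implanted in the left eyelid and, after 3 days of recovery, 7 days of training, in which the tone lasted 352 ms and the shock near the eye 100 ms. In the paired group the shock began 252 ms into the tone and both ended together, while in the unpaired group tone and shock were given apart in pseudorandom order. Each group was a pool of 10 to 15 nuclei, all from the side of the wired eye, dissected within 10 to 30 min of death. There was 1 array for each group and design, 6 in all, and it is not stated if 1 RNA pool fed all designs, so no difference has a replicate check, an error over animals or a p-value. Because whole tissue was measured, fewer cells of a type and less RNA per cell cannot be told apart.

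Chaperones bind unfolded protein and help it fold, refold or be degraded. Hsp70 proteins, encoded by the Hspa genes, bind and release their clients in a cycle driven by ATP, which DnaJ proteins (Hsp40) start by stimulating ATP hydrolysis, while Hsph proteins and BAG proteins exchange the nucleotide. Hsp90 proteins act on kinases and hormone receptors, the Cct genes encode the ring chaperonin that folds actin and tubulin, Hspd1 and Hspe1 form the mitochondrial chaperonin, and the small heat shock proteins of the Hspb genes hold unfolded protein without ATP. Heat shock factor induces some of them through heat shock elements, inverted repeats of GAA in the promoter, and the unfolded protein response induces those of the endoplasmic reticulum through the endoplasmic reticulum stress element. In neurons the family is known for guarding long-lived cells against aggregates and for recycling synaptic vesicle proteins.

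Promoter sequences are shown first, since they carry the elements of both induction routes named above. RefSeq windows of 250 bases before to 50 after a start, on build GRCm38.p6, were found for 70 of the 84 genes, 89 windows in all, and were searched on both strands. The element of 3 units, GAANNTTCNNGAA or its reverse TTCNNGAANNTTC, was in the windows of 4 member genes, Dnajb6, Hspd1, Hspe1 and Hsph1, or 6 of the 89 windows (6.74%), against 0.603% of 32851 windows of all genes. Dnajb6 and Hsph1 each had overlapping windows over the same match, and Hspd1 and Hspe1 shared theirs. A share of windows is therefore not a share of separate sites. The Hsph1 match lay after the start. The shorter GAANNTTC, which is part of the longer element and its own reverse, was in 16 member genes and 20.2% of member windows, against 7.86% of all windows. It was present in 9 of the 12 heat-inducible genes with a window. In Bag3, Hspb8 and Hsph1 it lay only after the start, and Hspd1 and Hspe1 shared the same match. The heat-inducible list held Hspa1a, Hspa1b, Hspa8, Hspb1, Hspb8, Hsph1, Hspa4l, Hsp90aa1, Hspd1, Hspe1, Dnaja1, Dnajb1, Dnajb4 and Bag3. The other arrangement of 2 units, TTCNNGAA, also its own reverse and part of the longer element, was in 8 member genes and 11.2% of member windows, against 8.52% of all. The stress element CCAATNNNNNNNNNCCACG, or its reverse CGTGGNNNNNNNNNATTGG, was in 3 member genes, Hspa5, Hsp90b1 and Dnajc3, and in 0.119% of all windows. A match is a description of letters and not a shown binding site.

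The stretches with these elements are given on the gene's own strand, 5′ to 3′, with the element in capitals. Hspa1a lies at chr17:34972233-34972280 and Hspa1b at chr17:34959315-34959362, both on the minus strand. Hspe1 is at chr1:55088039-55088096 and Dnajb6 at chr5:29735832-29735884, both on the plus strand. Hspa5 is at chr2:34772005-34772063 on the plus strand, Hsp90b1 at chr10:86705513-86705676 on the minus strand and Dnajc3 at chr14:118937807-118937865 on the plus strand.
Hspa1a: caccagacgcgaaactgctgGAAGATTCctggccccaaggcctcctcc
Hspa1b: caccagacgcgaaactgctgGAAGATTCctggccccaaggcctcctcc
Hspe1: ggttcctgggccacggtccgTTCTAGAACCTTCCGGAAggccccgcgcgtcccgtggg
Dnajb6: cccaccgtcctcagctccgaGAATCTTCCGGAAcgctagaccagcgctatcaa
Hspa5: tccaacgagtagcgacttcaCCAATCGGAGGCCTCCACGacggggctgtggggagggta
Hsp90b1: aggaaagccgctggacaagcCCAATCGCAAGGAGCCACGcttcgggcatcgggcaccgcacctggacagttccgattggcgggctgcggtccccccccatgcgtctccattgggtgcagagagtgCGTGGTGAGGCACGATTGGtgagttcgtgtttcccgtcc
Dnajc3: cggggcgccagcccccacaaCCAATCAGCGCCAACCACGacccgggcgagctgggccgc
The Hspa1a and Hspa1b windows were identical at 296 of 300 positions. The Hspe1 stretch holds a pair of overlapping elements and lies in the window of Hspd1 too, whose gene is its neighbour and runs the other way.

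Values are log2 signals as deposited, and a log2 ratio is the paired minus the unpaired signal after the paired array was shifted by 0.010, 0.008 and 0.007 on designs A, B and C. A probe set was kept if its mean signal was at or above the median of its design. The paired and unpaired array of a design had a Pearson r of 0.991 to 0.995 over all its probe sets. Probe sets of a gene scattered around the gene's mean log2 ratio with an SD of 0.20, the measure of probe and array error used below. Of 15 deep nuclear neuron markers with a probe set, 10 were kept, with a median log2 ratio of -0.06, 7 lower and 3 higher, while the transcription factor genes Irx5, Lhx9, Lhx2, Tbr1 and Meis2 were under the filter. Granule cell markers had 8 of 9 kept genes higher (median 0.35) and a summed signal on design A of 1132 unpaired and 1288 paired. For oligodendrocyte markers 10 of 11 were lower (median -0.11), with sums of 8198 and 7825. Purkinje cell markers had 7 of 9 higher (median 0.09), and astrocyte, microglia and endothelium and blood lists had medians of -0.08, 0.05 and 0.02. What part these cell types have in the chaperone values was not tested.

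Chaperone transcripts were among the brighter signals of the tissue. The median member probe set stood at the 64.8th percentile of signal in its design, against 53.1 for all probe sets with a single symbol, and 121 of the 187 (64.7%) were kept, covering 75 of the 84 genes. Signals from the 90th percentile of a design upward came from 16.0% of members and 11.0% of all. Ranks compare probe sets with different affinity, so they order signals and not transcript numbers.

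**Figure D1:**
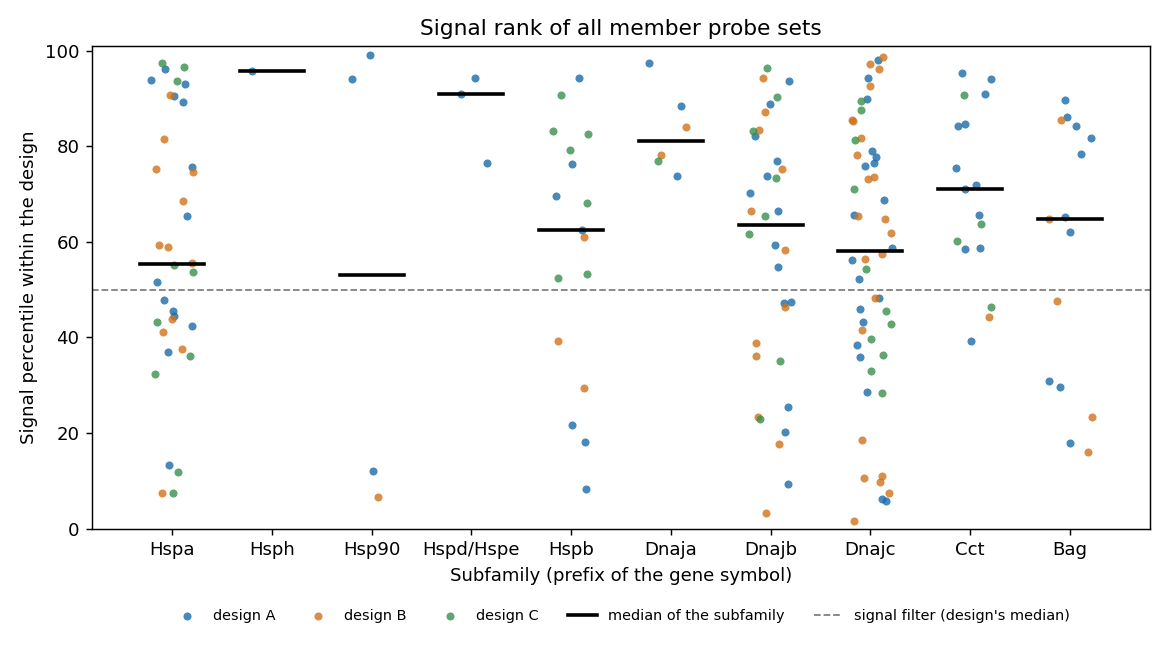
Signal percentile of each of the 187 member probe sets within its array design (points, coloured by design), by subfamily, with the subfamily's median as a bar and the signal filter as a dashed line at 50. Dnaja, Hspd/Hspe and Hsph probe sets all lie above the filter, while Hspa and Dnajc probe sets run from under 10 to above 97.

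The highest ranks were shared by chaperones of several compartments. Hsp90aa1, the inducible cytosolic Hsp90, reached the 99.2nd percentile on design A, though its other probe sets on A and B lay at the 12.0th and 6.72nd. Dnajc27, a small GTPase with a J domain, was at the 98.6th on design B, the splicing-associated Dnajc8 at the 98.1st on A, and Dnaja1, a main partner of the cytosolic Hsp70, at the 97.4th. Dnajc5, the cysteine string protein of synaptic vesicles, reached the 97.2nd percentile and had all 6 of its probe sets kept, from the 65.4th upward. A suffixed probe set of Hspa13, a microsomal Hsp70, stood at the 97.4th on design C. Hspa4l, Dnajb14 and the mitochondrial Dnajc30 followed at the 96.6th, 96.5th and 96.3rd. Hspa8, the constitutive Hsp70, stood at the 96.2nd and Hsph1 at the 95.7th. The values of Dnajc8 and Dnajb14 also came from suffixed probe sets. Other probe sets of Hspa13, Hspa4l and Dnajb14 lay as low as the 7.36th, 37.5th and 38.9th.

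Among subfamilies with several genes, the Dnaja probe sets had a median percentile of 81.1, the Hspd and Hspe probe sets 91.0 and the Cct probe sets 71.1. Bag, Dnajb and Hspb had medians of 64.8, 63.5 and 62.5, and Dnajc, Hspa and Hsp90 had 58.1, 55.4 and 53.1. The 9 genes with no kept probe set were Hspa14, Hspa1l, Hspb7, Hspb9, Dnajb7, Dnajb11, Dnajc13, Dnajc17 and Dnajc28. Dnajb11, an endoplasmic reticulum partner of Hspa5, was just under the filter at 47.3, and Dnajb7 was the dimmest of them at 3.20.

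Most chaperone signals differed little between the paired and unpaired pools. Of the 75 kept genes, 41 were higher and 34 lower in the paired pool (54.7% higher, against 49.0% of 10581 kept genes), with a median log2 ratio of 0.02 against -0.004 for all kept genes. That median was 0.01 to 0.04 under other scalings of the arrays. By subfamily the medians were 0.06 for Dnajb and Dnajc, 0.05 for Dnaja, 0.02 for Hspa, -0.02 for Hspb and Bag and -0.04 for Cct. The sign was not stable for Dnajb, at -0.071 with the 75th percentile filter and -0.063 on design C alone, nor for Dnajc, at -0.014 on design A alone, nor for Hspa, at -0.05 on design B alone. It turned upward for Hspb, to 0.05 with no suffixed probe sets, and for Bag, to 0.04 with the 75th percentile filter, while Dnaja kept its sign under each alternative. With only the brightest probe set of each gene the median of all members was -0.015. The pair of Hsp90 genes had a median of -0.04, which turned to 0.02 with quantile scaling. The spread was also alike, with an SD over probe sets of 0.20 for members and 0.19 for all. A log2 ratio of 0.3 or more in either direction was seen in 10 member genes (13.3%), 5 higher and 5 lower, against 8.52% of all genes. A ratio of 1.5-fold higher was reached by 1 of the 121 kept member probe sets, where 0.349% of all 18351 kept probe sets did so, and 1.5-fold lower by 0, where 0.332% of all did.

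**Figure D2:**
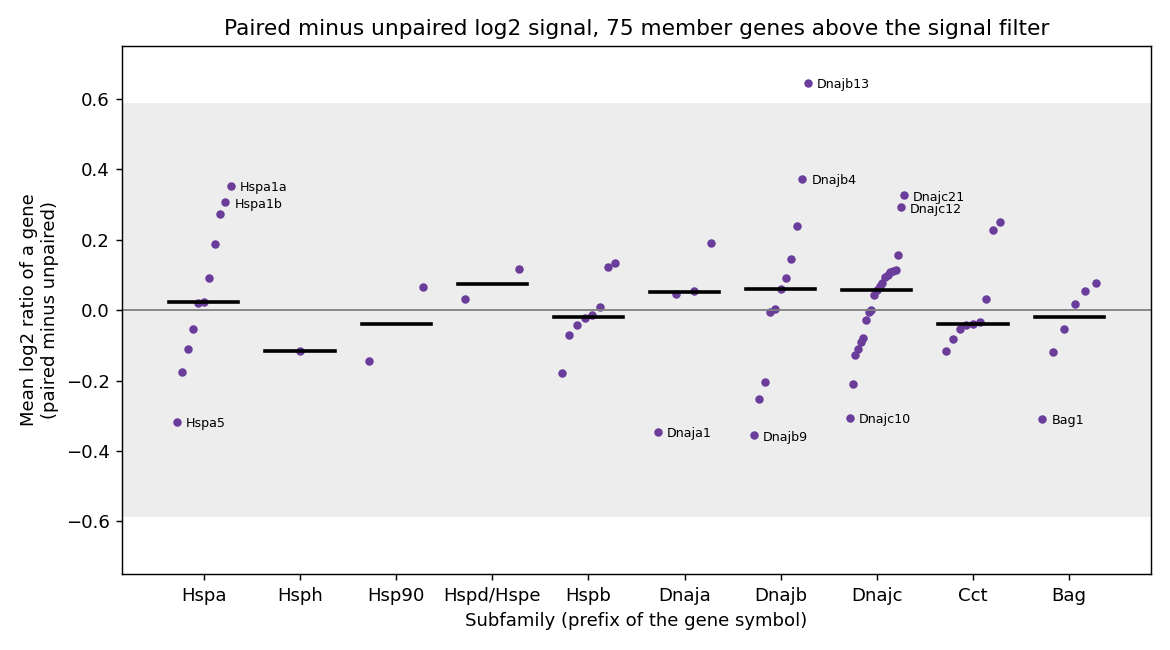
Mean log2 ratio, paired minus unpaired, of each of the 75 member genes above the signal filter (points), by subfamily, with the median over genes as a bar; the grey band spans 1.5-fold in either direction. Dnajb13 lies above the band at 0.65, and all other genes lie inside it, from -0.36 for Dnajb9 to 0.37 for Dnajb4.

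The probe set past 1.5-fold belonged to Dnajb13, a DnaJ protein of sperm flagella and motile cilia. It read 6.58 unpaired and 7.22 paired, a log2 ratio of 0.65 or 1.56-fold. That probe set carries a suffix marking less specific probes. Its other probe sets fell under the filter: 4.64 and 4.71 on design A, a log2 ratio of 0.08, and 3.34 and 2.83 on design B. The log2 ratio of the latter was -0.19 after the paired signal was raised to that design's floor of 3.15. The bright value thus stood alone among the gene's probe sets.

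Both near-identical genes of inducible cytosolic Hsp70 had the higher signal after paired training. Hspa1a had a log2 signal of 6.27 unpaired and 6.61 paired on design A, a log2 ratio of 0.35 or 1.28-fold. A dim suffixed Hspa1a probe set on design C, at 2.03 and 1.97, lay at the floor in both pools. Hspa1b had 4.76 and 5.06, a log2 ratio of 0.31 or 1.24-fold, and stood just above the filter at the 51.6th percentile. These genes neighbour each other and share nearly all of their promoter window, and their transcripts are so alike that probes for one may also read the other, so the pair is not a pair of independent measurements. The third gene of the cluster, the testis-type Hspa1l, was under the filter at 4.29 and 4.34. Hspa14, a ribosome-associated Hsp70, was also under it on all 4 probe sets, with the widest gap on design A at 4.26 and 4.82 (0.57).

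Hspa8 and Hspa2 went the other way. Hspa8 had 8.91 unpaired and 8.72 paired, a log2 ratio of -0.18, and Hspa2, a testis-enriched Hsp70, had 5.64 and 5.58 on design B, -0.05. Hspa12a, an atypical Hsp70 of brain, had 5 kept probe sets, with log2 ratios of 0.38, 0.29, -0.003 and -0.04 on design B and 0.31 on design C, a mean of 0.19. Its paralog Hspa12b, found in endothelium, had 4.66 and 4.93, a log2 ratio of 0.27. Within Hspa12a 3 probe sets were higher in the paired pool and the others near 0.

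Nucleotide exchange partners of Hsp70 had no common direction, and Bag1 stood lowest among them. Hsph1 had 8.75 unpaired and 8.63 paired, a log2 ratio of -0.12. For Hspa4 the brightest probe set gave 8.32 and 8.28 (-0.03) and a suffixed one 5.68 and 5.88 (0.21). Hspa4l, of the same subfamily, gave 0.17, -0.18 and 0.08 with 1 kept probe set on each design in turn. The 6 Bag genes had a median of -0.02, with 3 higher and 3 lower. Bag1, which links Hsp70 to the proteasome, was lowest at 7.25 and 6.93, a log2 ratio of -0.31. Bag3, the heat-inducible member that directs clients to autophagy, had 5.63 and 5.50 (-0.12), against 4.14 and 4.29 on a probe set under the filter on design B. Bag6, which guards tail-anchored proteins, had 3 kept probe sets between 0.02 and 0.11, and Bag2 had -0.007 and 0.16.

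DnaJ partners of cytosolic Hsp70 split between both directions. Dnaja1 had 9.42 unpaired and 9.06 paired, a log2 ratio of -0.34, or 1.27-fold lower, the second lowest of the 75 genes, on its only probe set. Dnaja4 was nearly flat, with 0.03 and 0.05 on design B and 0.06 on C, and Dnaja2 had 0.05. Dnajb4, a heat-inducible DnaJ, had the higher signal in the paired pool with each kept probe set, and these lay on different designs: 5.23 and 5.52 on design A, a log2 ratio of 0.30, and 7.03 and 7.47 on design B, 0.44. Its mean of 0.37, or 1.30-fold, was the second highest of the 75. A further Dnajb4 probe set on design B was dim, at 2.86 and 2.83.

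Dnajb1, the best known heat-inducible DnaJ, was discordant, with 6.62 unpaired and 6.45 paired on design A (-0.15) but 3.52 and 3.79 on design C (0.27). Dnajb2, a DnaJ of neurons that delivers clients to the proteasome, was lower on all 4 of its probe sets, over 3 designs. They gave -0.15 on design A, -0.09 on design B, and -0.52 and -0.04 on design C, a mean of -0.20. Those on designs B and C were all suffixed, the most negative at 5.65 and 5.13. Dnajb6, which suppresses polyglutamine aggregates and carries the element of 3 units shown above, gave 5.75 and 5.92 (0.18) and 8.35 and 8.14 (-0.19) on design A. Dnajb5 had 5.96 and 6.19 (0.24) on design A and -0.42 on a probe set under the filter on B. Dnajb14, a DnaJ of the endoplasmic reticulum membrane, had all 3 kept probe sets within 0.012 of 0, and the suffixed Dnajb8 probe set, of a testis-enriched gene, gave 6.31 and 6.05 (-0.25).

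The wider Dnajc group had 12 genes higher and 9 lower, with a median of 0.06. Dnajc21, a ribosome biogenesis factor, was highest at 5.01 unpaired and 5.33 paired, a log2 ratio of 0.33 on design C, while its other probe sets, all under the filter, gave -0.02 to 0. Dnajc12, tied to the folding of aromatic amino acid hydroxylases, followed with 5.39 and 5.67 (0.29), and its dim probe sets on design C gave 0.37 and 0.06. For the synaptic Dnajc5, 1 probe set on design A gave 6.26 and 6.66 (0.40), and the other 5, of which the brightest had 7.81 and 7.89, lay between -0.14 and 0.09. Dnajc25 gave -0.15, 0.11 and 0.17 over 3 probe sets, Dnajc27 had 8.41 and 8.48 (0.08), and Dnajc24, a diphthamide synthesis factor, 5.01 and 4.80 (-0.21).

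Heat-inducible members had no common direction. All 14 were kept, 9 higher and 5 lower in the paired pool, with a median log2 ratio of 0.05, against 0.009 for the other 61 kept members. Dnajb4, Hspa1a and Hspa1b led, and Dnaja1, Hspb1 and Hspa8 were lowest. Hsp90aa1, the brightest, had 10.35 and 10.40, a log2 ratio of 0.06. Among the 16 genes with GAANNTTC in the promoter window 9 were higher and 7 lower, with a median of 0.04. For the 4 genes with the element of 3 units the values ran from -0.12 to 0.12.

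**Figure D3:**
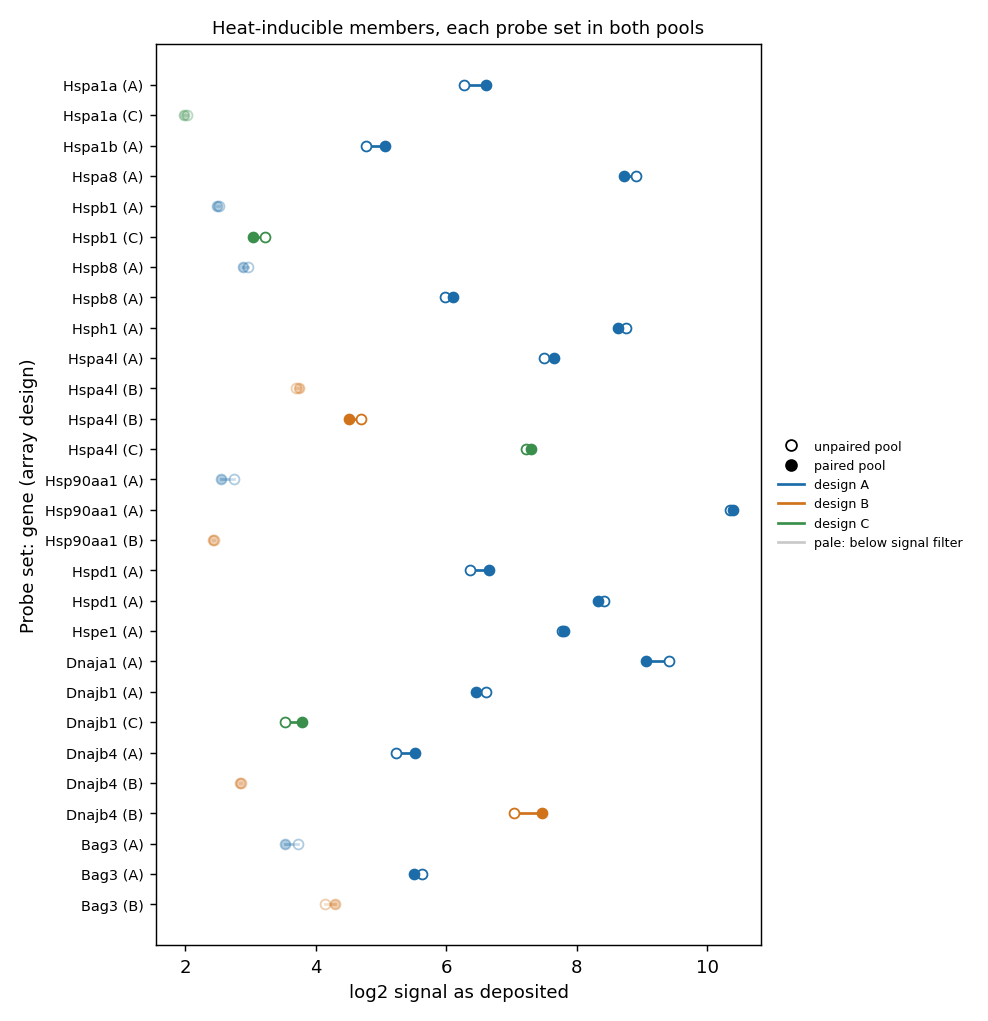
Deposited log2 signal of every probe set of the 14 heat-inducible members in the unpaired (open) and paired (filled) pool, coloured by array design and pale where below the signal filter. Among kept probe sets, those of Hspa1a, Hspa1b and Dnajb4 have the filled point to the right, those of Dnaja1 and Hspa8 have it to the left, and the points of Hsp90aa1 and Hspe1 nearly coincide.

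Among the members, chaperones of the endoplasmic reticulum lumen were mostly lower in the paired pool. The wider list of endoplasmic reticulum folding genes, given below, had no common direction. The group of 8 lumenal member genes was put together after the values were seen and supports nothing by itself. Of the 7 kept genes of this group 5 were lower and 2 higher, where 49.0% of all kept genes were higher. Of the group's 9 kept probe sets 7 were lower. The median log2 ratio was -0.14, and it moved to -0.31 with design A by itself and to -0.30 once suffixed probe sets were dropped. Hspa5, the lumenal Hsp70 also called BiP, had 7.88 unpaired and 7.55 paired, a log2 ratio of -0.32. Dnajb9, its DnaJ partner that restrains the stress sensor Ire1, had 5.29 and 4.92 (-0.36, or 1.28-fold lower), the lowest of all 75 member genes. Dnajc10, a reductase with a J domain, had 6.75 and 6.43 (-0.31). Hsp90b1, the lumenal Hsp90, had 8.42 and 8.27 (-0.14).

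Hspa13 was lower on all 3 kept probe sets, with 5.41 unpaired and 5.11 paired on design B (-0.30) and near-equal signals on C (-0.02 and -0.009). The exceptions were Dnajc1 at 5.01 and 5.11 (0.11) and Dnajc3, an inhibitor of the translation-arresting kinase Perk, at 5.14 and 5.24 (0.11). Just under the filter, a further Dnajc3 probe set on design A went the other way, at 4.84 and 4.60 (-0.24). On design B another just under it went with the kept probe set, at 4.19 and 4.30 (0.11). A dimmer suffixed probe set on design A gave 0.06. The 3 genes with the stress element therefore had -0.32, -0.14 and 0.11. Hspa5, Dnajb9, Dnajc10 and Hsp90b1 each had only 1 kept probe set, all on design A.

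**Figure D4:**
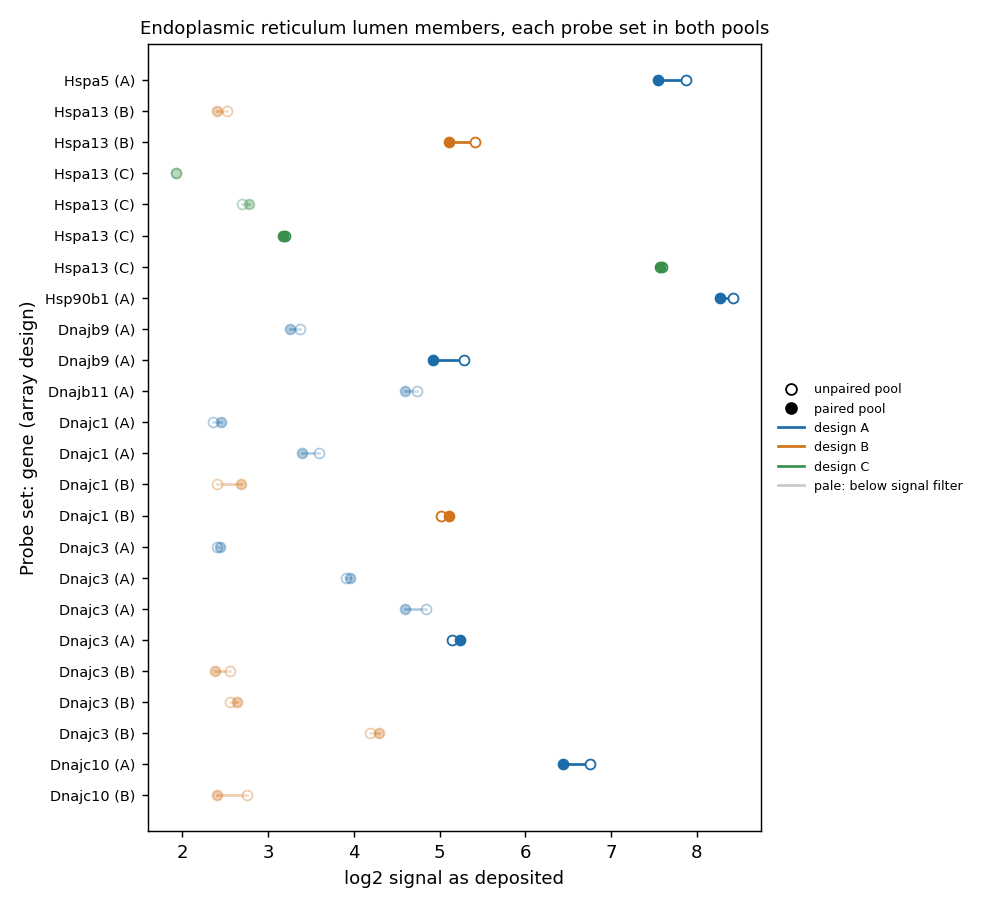
Deposited log2 signal of every probe set of the 8 endoplasmic reticulum lumen members in the unpaired (open) and paired (filled) pool, coloured by array design and pale where below the signal filter. For Hspa5, Dnajb9, Dnajc10 and Hsp90b1 the filled point of the kept probe set lies to the left, and for Dnajc1 and Dnajc3 slightly to the right.

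Other genes of endoplasmic reticulum folding had no common direction. Of 23 kept genes of this list, 13 were higher and 10 lower, with a median of 0.009, which was -0.001 without scaling. Ern1, which encodes Ire1, was lowest at -0.69 on 1 probe set just above the filter, at the 50.7th percentile. The disulfide isomerase gene Pdia3 followed at -0.36. The highest were Sdf2l1, a lumenal cofactor of Hspa5, at 0.23, and Sec63, a membrane J protein of the translocon, at 0.17. The response factor genes Xbp1, Atf4 and Ddit3 had 0.04, -0.02 and 0.06.

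Mitochondrial chaperones had no common direction. Hspd1, the large chaperonin subunit, gave 8.41 unpaired and 8.32 paired (-0.08) on its brighter probe set and 6.36 and 6.66 (0.32) on a suffixed one, and its promoter partner Hspe1 had 7.78 and 7.80 (0.03). Hspa9, the mitochondrial Hsp70, gave 0.08 and -0.04 on kept probe sets of designs A and C. Dnaja3, its DnaJ partner, was highest at 7.40 and 7.58, a log2 ratio of 0.19. Over all 7 mitochondrial members the median was 0.02, with 4 higher and 3 lower. In the list of mitochondrial import and quality control 10 of 19 kept genes were higher (median 0.003, and -0.008 without scaling). They ran from -0.51 for Pmpcb and -0.28 for Phb2 to 0.15 for Grpel2, the exchange factor of Hspa9, and 0.20 for Pmpca. Pmpcb lay just above the filter, at the 50.7th percentile.

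Means of the Cct genes ran from -0.12 to 0.25, while their single kept probe sets ran from -0.31 to 0.50. Of the 9 kept genes 3 were higher and 6 lower, with a median of -0.04, which turned to 0.005 with quantile and 0.002 with loess scaling. Cct7 had the highest rank, at 8.62 unpaired and 8.57 paired (-0.04, and 0.02 with quantile scaling), and Cct4, Cct5 and Cct8 had means of -0.03, -0.04 and -0.05. Cct2 was at 5.23 and 5.45 (0.23). Cct6a averaged 0.25 from 0.47 and 0.03 on a pair of suffixed probe sets. Cct3 was the least concordant, with 0.50, 0.02 and -0.08 on design A and -0.31 on C. The lowest were the testis-type Cct6b at -0.12 and Cct8l1 at -0.08. Tcp1, the remaining subunit of the ring, had 0.19, and the list of Tcp1, prefoldins and tubulin cofactors had 7 of 15 genes higher (median -0.01, and 0.02 with quantile scaling), from -0.20 for Vbp1 and -0.15 for Pdrg1 to 0.43 for Pdcl and 0.63 for Pfdn4.

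Small heat shock proteins were dim to moderate, and the log2 ratios of the 5 kept genes stayed within 0.18 of 0. Hspb8, partner of Bag3, had 5.98 unpaired and 6.10 paired (0.12), Hspb6 had 4.81 and 4.93 (0.13), and Hspb2 had 0.02 and -0.004 on its kept probe sets. Hspb1, known as Hsp25 in mice, was kept only on a suffixed probe set of design C, at 3.23 and 3.04 (-0.18), while on design A it lay at the floor with 2.52 and 2.48. The names Hspbp1, Hspbap1 and Hspb11 match the rule without being small heat shock proteins. Hspbp1, an Hsp70 exchange factor, spanned -0.35 to 0.23 over 3 probe sets.

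Co-chaperones, as a list that also holds Hspbp1, had 13 of 24 kept genes higher and a median of 0.03, which was -0.058 with the 75th percentile filter, -0.054 on design C alone and -0.039 with the brightest probe sets. The heat shock factor genes of that list, Hsf1, Hsf2 and Hsf4, are not among the kept genes, so these values do not describe them. The Hsp90 cofactors Ppid and Stip1 were lowest at -0.26 and -0.14, and Nudc and Unc45a highest at 0.47 and 0.11. None of the pathway lists had a median farther than 0.03 from 0.

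Probe sets of a member gene often disagreed. Of the 28 genes with at least 2 kept probe sets 12 had all in one direction (42.9%, against 42.1% of 3437 such genes in the series), 6 higher and 6 lower. The median range within a gene was 0.21, against 0.22 for all. Those higher throughout were Dnajb4, Dnajb12, Dnajc16, Bag6, Dnaja4 and Cct6a. Those lower throughout were Dnajb2, Hspa13, Dnajc2, Dnajc15, Cct5 and Hspbap1. Only Dnajb4 among the former kept every probe set at 0.3 or more.

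**Figure D5:**
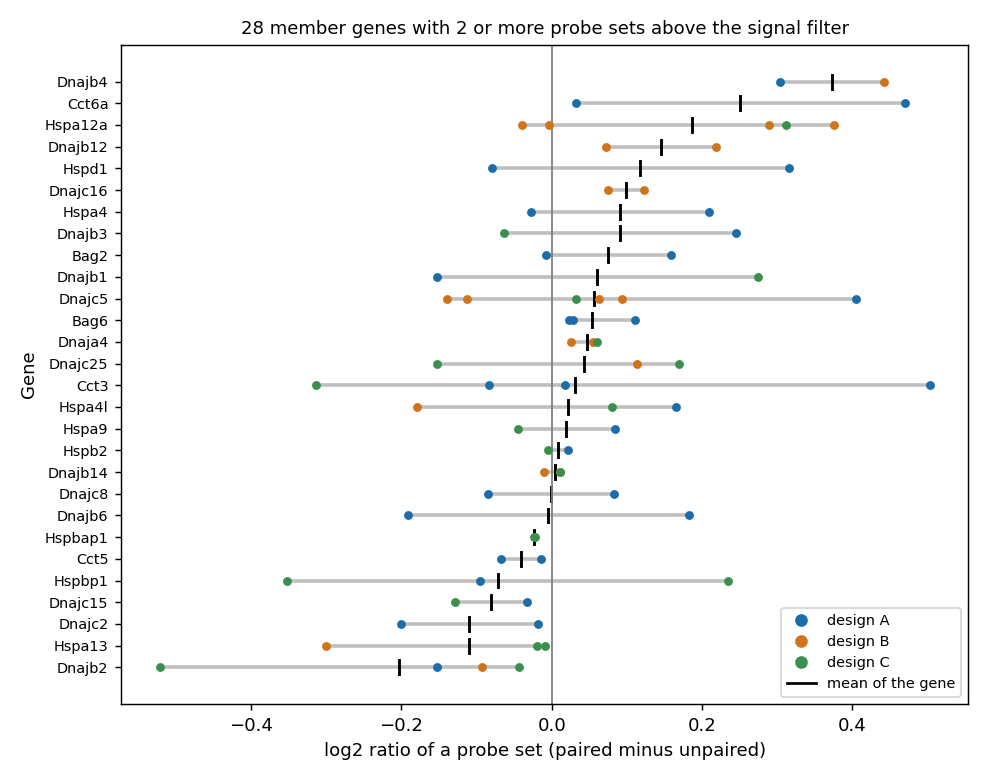
Log2 ratio, paired minus unpaired, of each kept probe set (points, coloured by design) of the 28 member genes with at least 2 of them, with the gene's mean as a black tick and its range as a grey line. Dnajb4 lies wholly at or above 0.30 and Dnajb2 wholly below 0, whereas Cct3 spans -0.31 to 0.50.

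Members from the 90th signal percentile upward leaned lower in the paired pool with a single shift per array or no scaling. The lean was smaller with quantile scaling and absent with loess scaling, where 15 were lower and 15 higher. From the 90th signal percentile upward 20 of 30 member probe sets were lower (66.7%, median -0.04), where 56.0% of all probe sets with a single symbol were lower. Hspa8, Hspa5, Dnaja1, Hsph1, Hsp90b1, Cct4, Cct5 and Cct7 were among these. The lean lay between the 90th and 95th percentiles, where 13 of 18 were lower (72.2%, against 54.7% of all). From the 95th upward 7 of 12 were lower (58.3%, against 57.4%). Between the 75th and 90th fewer members were lower, 36.6% against 51.9%. Without scaling 20 of the 30 were lower too (median -0.05), where 57.9% of all probe sets with a single symbol were lower. With quantile scaling 16 were lower (53.3%, against 48.8% of all, median -0.008). With loess scaling, which removes a trend with brightness, 15 were (50%, against 49.4% of all, median -0.01). Cct7 turned to 0.02 with quantile and 0.006 with loess scaling. Hspa5, Hspa8 and Dnaja1 themselves stayed lower under each scaling, at -0.27, -0.12 and -0.30 or below.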

How the data were processed

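Total RNA of each pool was labelled with biotin (15 ug of cRNA, per the labels' protocols) and measured on 1-colour arrays. The authors' deposited table holds log2 signals, a base inferred from the range (1.40 to 12.53 without controls). How they were summarized, background-corrected and normalized is not given in the sources read. The letters A, B and C were read as array designs, since the tables hold different probe sets. Controls (198 probe sets) were set aside.

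Of the rest, 29137 had a single gene symbol, 718 several and 6846 none. Symbols were updated through the gene identifier with the RefSeq table of GRCm38.p6, which matched 29044 and changed 0 member names. Probe sets with several symbols, such as 3 of Dnajc19, were not used. The paired array of each design was moved by a constant that set the median log2 ratio of its brighter 50% to 0, signals under the 25th percentile were set to it, and probe sets at or above the 50th percentile were kept (18351). A gene's value was the mean over its kept probe sets. Designs were never normalized together.

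With 1 array a group there was no test. Probe sets were counted at 1.5-fold. Named genes were those past 1.5-fold, the highest in rank and the 2 highest and 2 lowest of each subfamily, heat-inducible genes, genes with 3 or more kept probe sets, and the 2 highest and 2 lowest of each pathway list. Others were named for role or absence. Members and lists were chosen with earlier results of these data known. Steps were tested on simulated data and run with Python 3.11.15, numpy 2.4.6, pandas 2.3.3 and statsmodels 0.14.6.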

Additional observations from a re-analysis of the deposited data

How the results depend on the processing

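No paired analysis was possible because each training group had 1 array per design. Alternatives were other scalings (none, quantile, loess with a span of 0.3), other floors (none, the median), other signal filters (none, the 75th percentile), single designs, only the brightest probe set of a gene, no suffixed probe sets, members by updated symbol, and probe sets with several symbols. Leaving out Hspbp1, Hspbap1 and Hspb11, the groups by compartment or role, and the scalings of the brightest members were added after seeing the data. A median was said to move if it changed by more than the probe set SD of 0.20 over the square root of its number of genes, and 15 of 272 such comparisons moved, while 45 turned sign. Dropping the floor, placing it at the median and updating symbols left each median unchanged. With 0 kept member probe sets at the main floor and 0 member names changed, such comparisons say little about stability. Of 494 comparisons for named genes 16 turned sign, and 0 results past 1.5-fold did. The only named gene past 1.5-fold was Dnajb13, on 1 kept probe set. Hspa1a, Hspa1b, Dnajb4, Dnaja1, Hspa5, Dnajb9, Dnajc10, Dnajb2 and Bag1 kept their direction under every alternative that gave them a value. All of these but Dnajb4 and Dnajb2 had only 1 kept probe set. Most alternatives read that probe set again unchanged and so could not turn its sign. The cause of the changes below was not tested.

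With the brightest probe set the member median was -0.015, that of heat-inducible members -0.024 and that of co-chaperones -0.039. No signal filter gave 0.10 for Hspa, 0.0028 for Dnajc and 24% for genes with probe sets in one direction (50 genes). The 75th percentile filter gave -0.071 for Dnajb and -0.058 for co-chaperones. Without suffixed probe sets, and on design B or C alone, the count past 1.5-fold higher was 0, since the Dnajb13 probe set was out. Design A alone gave -0.014 for Dnajc and -0.31 for the endoplasmic reticulum lumen, which was -0.30 without suffixed probe sets. Design B alone gave 0.26 for Tcp1 and prefoldins. Design C alone gave 36.4% of member genes higher, -0.063 for Dnajb, -0.054 for co-chaperones, 0.15 for mitochondrial import (3 genes) and -0.22 for chaperonin ring subunits (2 genes). The number of arrays limits the precision.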
